A study of Mus musculus with 10 samples.

Results

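The proteins that carry and sense force in a muscle fiber sit at the Z-disc, along the desmin network and at the junction between fiber and tendon, and 9 genes that encode them were followed in gastrocnemius (GAS) of mice with diet-induced obesity (DIO). They were chosen by name: *Nrap*, *Xirp1*, *Xirp2*, *Synm*, *Des*, *Flnc*, *Csrp3*, *Ankrd1* and *Ankrd2*, out of 21098 genes in the table of counts. Of these 9 genes, 5 had any count and 4 had enough for a test, as had 7813 genes of the whole table. In ASO against CTRL libraries *Nrap* rose, *Xirp2* and *Synm* fell, the fall of *Xirp2* not passing the threshold when fitted among segments at a like distance from the transcript's end, *Xirp1* did not pass it, *Des* was barely counted, and the counting left the remaining 4 genes without a measurement.

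Force in a fiber runs lengthwise through the sarcomeres and sideways through filaments that tie each Z-disc to its neighbours and to the membrane. Desmin and synemin, both intermediate filament proteins, form that sideways link, filamin C crosslinks actin at the Z-disc and at the membrane, and the Xin proteins (*Xirp1*, *Xirp2*) and NRAP bind actin at the fiber's ends and wherever myofibrils are built or repaired. The muscle LIM protein CSRP3 and the ankyrin repeat proteins ANKRD1 and ANKRD2, which bind the N2A part of titin, are found at the sarcomere and in the nucleus, and their transcripts are known to respond to stretch, overload and injury.

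The study set an antisense oligonucleotide (ASO) against miR-22, built as a mixmer of locked nucleic acids on a phosphorothioate backbone, beside vehicle in wild-type male C57BL/6J mice (C57BL/6JBomTac in the study's methods). All 10 animals were fed a high-fat diet from 9 weeks of age and for 9 weeks before dosing, and the series gives their age as 30 weeks. The 5 ASO mice received 10 mg/kg under the skin once a week for 14 weeks, and the 5 CTRL mice received 0.9% saline over the same time. Every group was thus on the obesity-inducing diet, and a scrambled ASO was not among the controls. At the first weighing in the study's record the lightest mice were in CTRL and the heaviest in ASO, with overlap. The study reports that ASO mice then resisted weight gain. The part of body weight in the values below was not tested. Each library came from the GAS of an animal, and miR-22 itself is not in the table.

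The values are read pairs counted on segments, which are the last stretch of at most 500 bp of the annotated 3′UTR of each transcript. The total per library lay between 2238864 and 2632214 pairs in ASO and between 1606491 and 2116297 in CTRL, so that every ASO library was deeper. The groups also differed in where along a gene the pairs lay. Segments 1000 bp or more upstream of the most distal counted end of their gene held 16.8% ± 1.27 of all pairs in ASO (SD, n = 5; 14.9 to 18.2%) and 25.7% ± 2.94 in CTRL (22.8 to 29.7%; exact permutation test, two-sided, p = 0.00794, the smallest that 5 against 5 libraries allow). This placement differed between the groups, as did depth. Placement is given below for each counted member, as the distance from the distal end of a segment to that of its gene. For part of the other genes it is given as the share of counts 1000 bp or more upstream. The study restricted counting to the 3′UTR ends because of coverage biases. Treatment, depth and RNA quality as sources of the difference cannot be told apart here, and none was tested. That the tissue is skeletal muscle was checked with 8 muscle fiber markers, of which *Mylpf* and *Tnnt3* were listed at 0. The others summed to 44071 to 136644 CPM, the counts scaled to a common library size.

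Whether a member was counted at all followed the layout of its segments. A read pair falling on bases shared by several segments was rarely assigned: the 18264 segments with no base of their own held 0.195% of all pairs. *Flnc* has 2 segments at the same position (chr6:29461383-29461882) and 0 bases that belong to either alone, and *Ankrd2* likewise has 2 identical segments (chr19:42033447-42033549). In *Csrp3* (chr7:48480146-48480377) 2 bases, and in *Ankrd1* (chr19:36089361-36089866) 5 bases, lay outside the overlaps. All 4 genes were listed at 0 in every library, as were 2834 of the 3308 genes with at most 10 bases of their own. A 0 there gives no upper limit on the transcript, and the stretch-responsive *Ankrd1*, *Ankrd2* and *Csrp3* therefore stay without a value in either group.

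*Des*, which encodes desmin, had few pairs, and its layout was of another kind. Its segment (chr1:75344724-75345223, plus strand) has 500 bases of its own, but 18 of the 20 annotated transcripts that reach this last exon end before it, most often at 75344365, which is 359 bp short of the segment's first base. The ASO libraries held 1, 3, 10, 2 and 7 pairs and the CTRL libraries 5, 3, 3, 1 and 0 pairs, in order of replicate. The groups overlapped, and the level was 2.02 ± 1.65 CPM in ASO and 1.17 ± 0.904 CPM in CTRL (SD, n = 5; two-sided exact permutation test on log2(CPM + 1), p = 0.381). Fitted without the filter on low counts, the fold change on the log2 scale was 0.75 (standard error, SE, 0.76; adjusted p = 0.522 in the edgeR quasi-likelihood test, Benjamini-Hochberg over 14134 genes). These pairs come from the longest form of the 3′UTR, not from desmin mRNA as a whole.

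**Figure D1:**
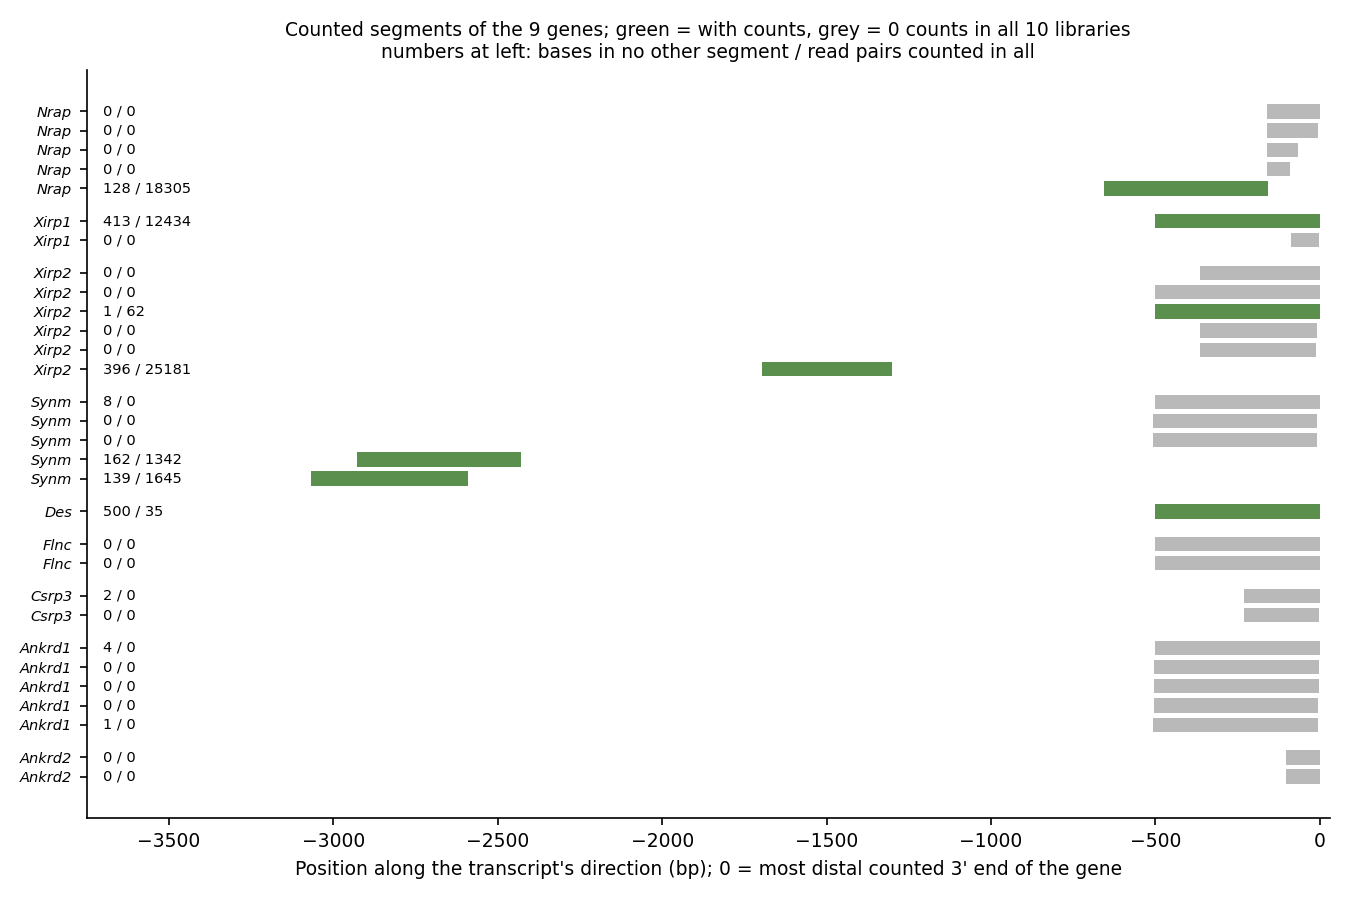
The counted segments of the 9 genes, drawn along the direction of the transcript in bp, with 0 at the most distal counted end of each gene. Green bars received read pairs and grey bars had 0 in all 10 libraries, and the numbers at the left are the bases in no other segment and the read pairs over all libraries: *Nrap*, *Xirp1* and *Des* were read at or near the distal end, while *Synm* and nearly all of *Xirp2* were read from segments that end over 1000 bp upstream of it.

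Against the background of the whole table, 29.2% of the 7813 tested genes passed an adjusted p of 0.05 (edgeR quasi-likelihood test), 11.8% of them with a rise (920 genes) and 17.4% with a fall (1363 genes). Of the 4 members tested, 1 rose and 2 fell, and their median log2 fold change was -0.10, against -0.03 over all tested genes. The split of calls depends on the scaling: 40.3% of calls were rises with TMM factors, 22.5% (528 of rises and 1819 of falls) with total counts, which shifted the median of all genes to -0.21, and 51.1% (1262 and 1206) with upper-quartile factors. The 4 tested members kept their direction under all of these. In bulk muscle, fewer cells of a type and less RNA per cell cannot be told apart.

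*Nrap*, the nebulin-related anchoring protein of the myotendinous junction and of forming myofibrils, was the member that rose. Its level in the ASO libraries was 726, 779, 1501, 1409 and 1458 CPM for replicates 1 to 5, and in the CTRL libraries 701, 598, 320, 519 and 368 CPM. Every ASO library was above every CTRL library, although ASO replicate 1 and CTRL replicate 1 nearly met, and within ASO the replicates 3, 4 and 5 stood well above the other two. Nonoverlapping groups with ASO on top were found for 7.97% of the tested genes. The mean was 1175 ± 387 CPM in ASO and 501 ± 158 CPM in CTRL (SD, n = 5), a ratio of 2.34. The log2 fold change was 1.23 with an SE of 0.27 and an adjusted p of 0.00568 (edgeR quasi-likelihood test, Benjamini-Hochberg).

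Markers of other fibers and cells moved with these libraries. The summed level of 8 slow fiber markers, with *Tnnt1* at 0, was 64, 54, 1265, 6113 and 769 CPM in ASO and 2023, 348, 327, 791 and 79 CPM in CTRL, for replicates 1 to 5. That of 8 smooth muscle and pericyte markers, with *Smtn* at 0, was 657, 467, 1109, 1525 and 973 CPM in ASO and 1206, 737, 569, 759 and 584 CPM in CTRL. For 6 endothelial markers the sum was 194, 139, 326, 308 and 227 CPM in ASO and 271, 158, 208, 172 and 185 CPM in CTRL. ASO replicates 3, 4 and 5, and CTRL replicate 1 within its group, were thus high in *Nrap* and in all of these sums. The sums overlapped between the groups, and these lists were picked here after their values were seen. Their part in the *Nrap* values was not tested. With any 1 library left out *Nrap* stayed past the threshold, with log2 fold changes from 1.10 (without CTRL replicate 3) to 1.38 (without CTRL replicate 1).

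All *Nrap* pairs, 18305 over the 10 libraries, fell on a segment at chr19:56308624-56309123 (minus strand) whose distal end lies 157 bp upstream of that of the gene. Only its part at chr19:56308624-56308734 is exonic, annotated as 3′UTR in some transcripts and over 105 bp as coding sequence in others, and 389 bp are intronic in the annotation used. The 128 bases that belong to no other segment are 108 exonic and 20 intronic bases. Over 369 bp the opposite strand carries a segment of *Habp2*, a gene that held 17 pairs in all libraries together. The other 4 *Nrap* segments, which are the distal 3′UTR ends of the remaining transcripts, overlap each other and were at 0.

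*Xirp1* encodes Xin, an actin-binding repeat protein of the fiber's ends that is made in repairing fibers. It was counted, like *Des*, at the most distal end of the gene, on chr9:119842821-119843320 (minus strand), of which 413 bases are its own and all 500 are exonic, mostly 3′UTR. The ASO libraries held 339, 384, 1383, 1112 and 567 CPM and the CTRL libraries 705, 319, 284, 339 and 204 CPM. The groups overlapped: ASO replicates 1 and 2 lay within the CTRL range, replicates 3 and 4 above it, and CTRL replicate 1 exceeded 3 of the 5 ASO libraries. With means of 757 ± 466 CPM in ASO and 370 ± 194 CPM in CTRL (SD, n = 5) the log2 fold change was 1.03 with an SE of 0.42, an unadjusted p of 0.0304 and an adjusted p of 0.0835 (edgeR quasi-likelihood test), which misses the threshold. The exact permutation test gave p = 0.111 (two-sided, n = 5 against 5).

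The call on *Xirp1* turned on single libraries and on the tool. Without CTRL replicate 1 the log2 fold change was 1.40 (adjusted p = 0.0226), without ASO replicate 1 it was 1.22 (adjusted p = 0.0448), and without ASO replicate 3 it was 0.72 (adjusted p = 0.219), all by the edgeR quasi-likelihood test. DESeq2 gave 1.06 with an adjusted p of 0.0389. ASO replicates 3 and 4 and CTRL replicate 1, which were highest in *Xirp1*, were also the 3 highest in the sums of slow fiber, of smooth muscle and of endothelial markers given for *Nrap*. The part of these markers in the *Xirp1* values was not tested.

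*Xirp2*, the paralog of *Xirp1* (also called myomaxin) that binds actin and alpha-actinin, fell. The ASO libraries held 842, 1045, 298, 691 and 822 CPM, and the CTRL libraries 1678, 1839, 1218, 1871 and 2135 CPM. All ASO libraries lay below all CTRL libraries, with ASO replicate 3 far below the rest, and such nonoverlapping groups with ASO below were found for 13.4% of the tested genes. The mean fell from 1748 ± 339 CPM in CTRL to 739 ± 277 CPM in ASO (SD, n = 5), a ratio of CTRL to ASO of 2.36. The log2 fold change was -1.24 with an SE of 0.28 and an adjusted p of 0.00607 (edgeR quasi-likelihood test, Benjamini-Hochberg). Fitted among segments at a like distance from the distal end, a comparison chosen after seeing the data, it was -0.58 and did not pass the threshold (adjusted p = 0.0662).

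Almost all of this signal, 99.8% of 25243 pairs, came from chr2:67355262-67355657 (plus strand), whose distal end lies 1302 bp upstream of that of the gene. Its 396 bp are the 3′UTR of a short transcript and, in longer transcripts, coding sequence of the last exon. At the distal end itself only 1 base belonged to a single segment. There the ASO libraries held 4 to 12 pairs and the CTRL libraries 4 to 7 pairs, 35 against 27 in all, with means of 3.12 ± 1.49 and 2.80 ± 0.667 CPM (SD, n = 5; two-sided exact permutation test, p = 0.802), and at this depth no difference was detectable. The fall of *Xirp2* was thus measured at its upstream segment, and the distal end of the same gene did not give a value of comparable precision.

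*Synm* showed the largest difference among the members. It encodes synemin, a large intermediate filament protein that joins desmin filaments to the dystrophin-associated complex and to vinculin. The ASO libraries held 24.6, 38.7, 7.61, 19.2 and 21.7 CPM, and the CTRL libraries 206, 287, 231, 356 and 344 CPM. The highest ASO library was below the lowest CTRL library by a wide margin. The mean fell from 285 ± 66.7 CPM in CTRL to 22.4 ± 11.2 CPM in ASO (SD, n = 5), which is 12.7-fold lower. The log2 fold change was -3.67 with an SE of 0.34 and an adjusted p of 0.000111 (edgeR quasi-likelihood test, Benjamini-Hochberg). With 18 to 91 pairs per ASO library the gene stayed above the filter on low counts in both groups.

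**Figure D2:**
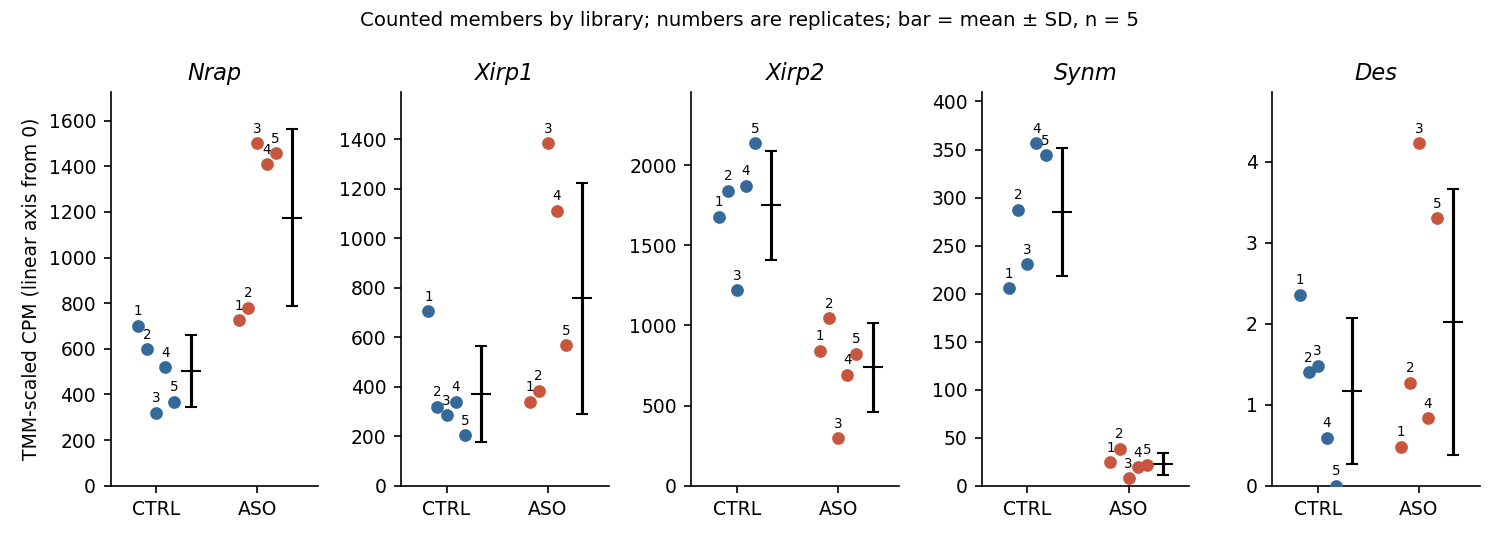
Levels of the 5 counted members in each library, as CPM scaled with TMM factors on linear axes from 0, with replicate numbers beside the points and the mean ± SD of 5 libraries as bars. CTRL (blue) and ASO (red) libraries do not overlap for *Nrap*, *Xirp2* and *Synm*, and overlap for *Xirp1* and *Des*.

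The *Synm* pairs came from 2 neighbouring segments in the proximal part of its long 3′UTR. The segment at chr7:67382336-67382835 (minus strand, 162 bases of its own, 2428 bp upstream of the distal end) held 24, 49, 8, 22 and 17 pairs in ASO and 214, 290, 188, 267 and 263 pairs in CTRL. The segment at chr7:67382498-67382974 (139 bases of its own, 2590 bp upstream) held 27, 42, 10, 24 and 29 pairs in ASO and 222, 326, 279, 337 and 349 pairs in CTRL. Fitted as separate features they gave log2 fold changes of -3.54 (SE 0.35) and -3.71 (SE 0.31), so that the pair did not differ beyond their errors. These segments are annotated as the ends of different transcripts. The 3 segments at the distal end, near chr7:67379908, overlap and were at 0.

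Of all members *Synm* alone holds a match to the miR-22-3p seed in an annotated 3′UTR. The seed, bases 2 to 8 of the mature miRNA, is what pairs with targets, and the match in the mRNA is its reverse complement GGCAGCT, searched on the transcript strand of the protein-coding transcripts of the 9 genes. The miRNA is shown with the seed in capitals, as RefSeq gives it, and the *Synm* stretch with the matching heptamer in capitals, read from GRCm39 on the minus strand at chr7:67382299-67382320.

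mmu-miR-22-3p: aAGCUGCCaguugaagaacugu

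*Synm* 3′UTR: tttatggaaaGGCAGCTgtggc

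The heptamer starts at base 885 of a 3′UTR of 3279 bp, in 3 annotated transcripts, and lies 25 bases downstream of the last base of the counted segment nearest to it. The transcripts annotated to end at the counted *Synm* segments therefore stop before the match and do not hold it. Pairs on those segments may also come from longer transcripts that run through it, and the counts do not tell these apart. Such a match is common at this length: 26.9% of 3450 genes whose longest 3′UTR is of similar length (from 0.8 times to the same factor above) hold at least 1, and 16.3% of 21540 genes overall. The longest 3′UTRs of *Xirp1* (2274 bp), *Xirp2* (1886 bp) and *Nrap* (176 bp) hold none. The match is a description of letters, and pairing with the miRNA was not measured here.

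Because the members were counted at different distances from the distal end, each was set beside segments at a like distance in a fit with every segment as its own feature. The median log2 fold change of the segments fell with distance, from 0.30 at the most distal position (5060 segments) through 0.11 from 1 to under 200 bp (567) and -0.33 from 200 to under 1000 bp (1288) to -0.72 from 1000 to under 3000 bp (1709) and -0.98 from 3000 bp on (2028). Of the most distal segments 25.2% rose and 4.37% fell by the edgeR quasi-likelihood test at an adjusted p of 0.05, of those 1 to under 200 bp upstream 18.7% rose and 9.52% fell, and of those 1000 to under 3000 bp upstream 5.38% rose and 50.3% fell. *Nrap* was thus read where rises were the more frequent call, and *Xirp2* and *Synm* where falls were.

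Within their own class the members took different places. *Nrap*, with a segment log2 fold change of 1.28, was exceeded by 0.882% of the segments 1 to under 200 bp upstream, and *Xirp1*, with 1.09, by 3.58% of the most distal ones. *Xirp2*, with -1.21, stood in the middle of its class, since 31.6% of the segments 1000 to under 3000 bp upstream were lower still. Lower than the *Synm* segments were only 0.936% and 0.527% of the same class.

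When segments under 200 bp from the distal end, and separately those 1000 to under 3000 bp upstream, were normalized and tested among themselves, a comparison chosen after seeing the data, *Nrap* kept a log2 fold change of 0.96 (SE 0.24, adjusted p = 0.0245) and *Synm* one of -2.99 (SE 0.28, adjusted p = 2.44e-06), both by the edgeR quasi-likelihood test. *Xirp2* was reduced to -0.58 (SE 0.25, adjusted p = 0.0662) and *Xirp1* to 0.75 (SE 0.40, adjusted p = 0.234), neither past the threshold in the same test. In these fits 5.11% of 5634 genes read near the end rose and 7.15% fell, and of 1499 genes read upstream 25.6% rose and 27.7% fell. Relative to transcripts read at a like place, the differences of *Nrap* and *Synm* passed the threshold, and that of *Xirp2* did not.

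**Figure D3:**
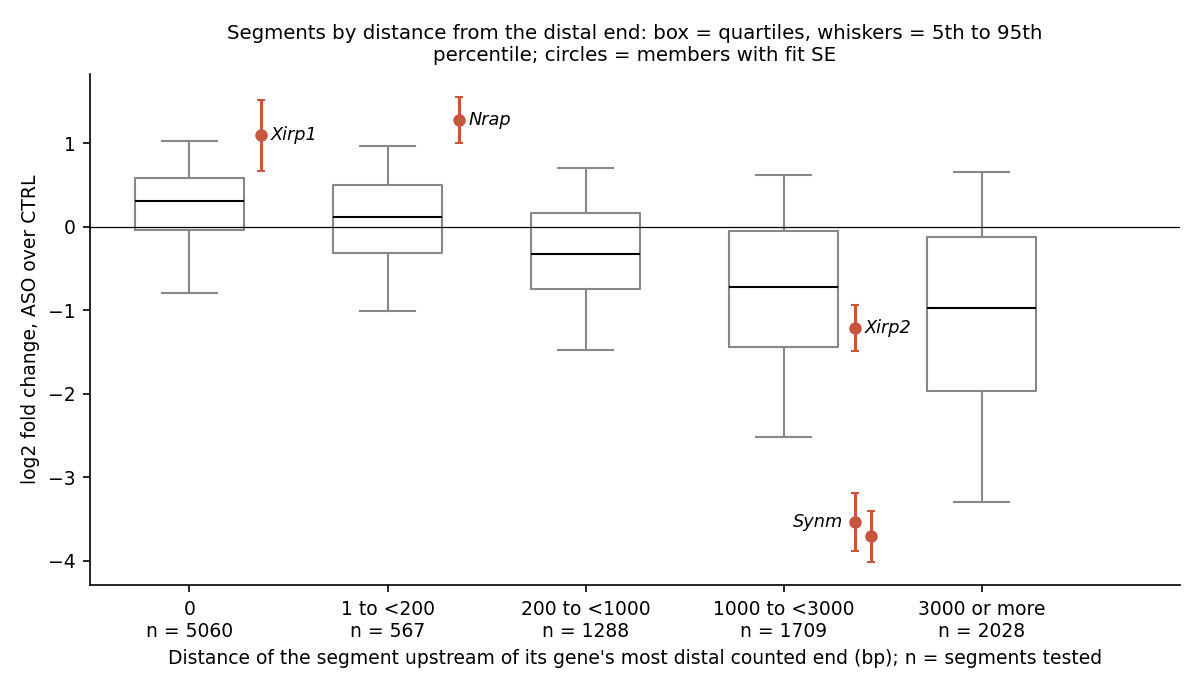
Log2 fold change of ASO over CTRL for all tested segments by their distance in bp from the most distal counted end of the gene, with boxes at the quartiles, whiskers at the 5th and 95th percentiles, and the members as red circles with the SE of the fit. Medians fall from 0.30 to -0.98 with distance, *Xirp2* lies inside the box of its class, and the *Synm* circles lie below the whisker.

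The values of the paralogs *Xirp1* and *Xirp2*, read at different distances from the distal end, did not move as a pair across animals. ASO replicate 3 had the highest *Xirp1* and the lowest *Xirp2* of its group, and also the lowest *Synm*. Pairs on *Xirp1* per pair on *Xirp2*, a ratio that does not depend on library scaling, were 0.403, 0.368, 4.65, 1.61 and 0.690 in ASO and 0.420, 0.173, 0.233, 0.181 and 0.0958 in CTRL. The ratio is not free of read placement. For replicates 1 to 5, segments 1000 bp or more upstream held 17.6, 18.2, 14.9, 16.6 and 16.6% of pairs in ASO. In CTRL they held 23.0, 22.8, 25.4, 27.3 and 29.7%. The part of placement in the ratio was not tested. Without ASO replicate 3, *Xirp2* (adjusted p = 0.00367) and *Synm* (adjusted p = 0.000155) still fell by the edgeR quasi-likelihood test.

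**Figure D4:**
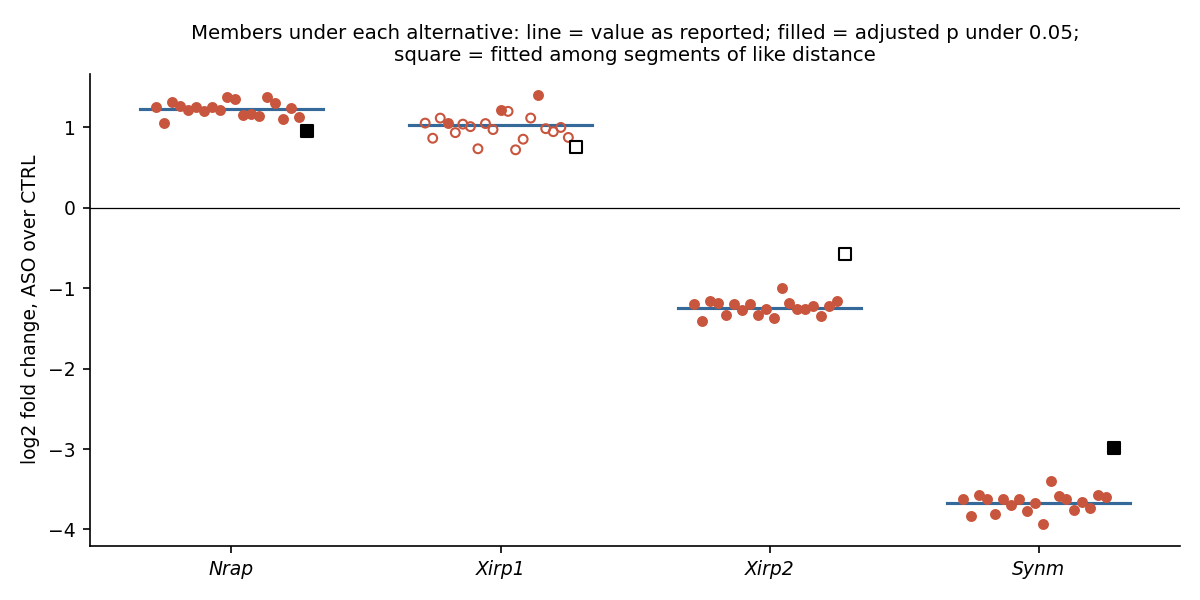
Log2 fold change of ASO over CTRL for the 4 tested members under each alternative scaling, filter, tool, block or left-out library (circles) and when fitted among segments of like distance (squares), filled where the adjusted p was under 0.05, with a blue line at the value as reported. *Nrap* and *Synm* are filled throughout, *Xirp2* is open only for the square at -0.58, and *Xirp1* is mostly open.

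The genes whose library-to-library pattern, after removing the group means, was nearest to each member were found among 4596 other tested genes with at least 50 pairs per library on average, by the root mean square difference of log2(CPM + 1) over the 10 libraries. Nearest to *Synm* were *Hdgf* (0.147) and *Pals2* (0.161), to *Xirp2* *Dnaja3* (0.115) and *Ctbp1* (0.130), to *Nrap* *Coq7* (0.144) and *D17H6S53E* (0.160), and to *Xirp1* *Stom* (0.239) and *Acot2* (0.252). None of these 8 genes is another member, and the members' own spread by the same measure was 0.555 for *Synm*, 0.483 for *Xirp2*, 0.446 for *Nrap* and 0.706 for *Xirp1*.

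The pathway around the members was described with 6 lists of 88 genes in all, of which 60 were tested, 9 rose and 11 fell (edgeR quasi-likelihood test, adjusted p of 0.05), with a median log2 fold change of 0.07. Over all tested genes 11.8% rose and 17.4% fell, and the counts of the 6 lists together lie near these shares. Of the 11 that fell, 6 had most of their counts 1000 bp or more upstream of the distal end, as had 1 of the 9 that rose and 5 of the 40 that did not pass. Among 12 intermediate filament partners 4 were tested. *Sync*, encoding syncoilin, a partner of desmin, fell from 135 ± 34.2 to 57.1 ± 20.9 CPM (log2 fold change -1.23), with none of its counts 1000 bp or more upstream. *Lmna*, encoding the nuclear lamins A and C, rose from 97.2 ± 19.9 to 185 ± 65.9 CPM (log2 fold change 0.93), and the adjusted p-values were 0.00351 and 0.00963 (edgeR). Vimentin (*Vim*, -0.16) did not pass.

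Of 17 filamin C partners and genes of chaperone-assisted degradation, 12 were tested, 2 rose and 1 fell, against 11.8% and 17.4% of all tested genes. *Hspb8*, a small heat shock protein that works with BAG3 on damaged filamin, rose from 1758 ± 421 to 3053 ± 473 CPM, and *Myoz1*, a filamin-binding Z-disc protein of fast fibers, from 3620 ± 828 to 6566 ± 1390 CPM, with log2 fold changes of 0.80 and 0.86. *Sgcd*, the delta-sarcoglycan that binds filamin C at the membrane, fell from 55.5 ± 30.5 to 13.9 ± 4.38 CPM (log2 fold change -1.98), with all its counts 1000 bp or more upstream. *Bag3* itself had 552 ± 182 CPM in CTRL and 558 ± 151 CPM in ASO (log2 fold change 0.02, SE 0.24).

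The titin N2A list, which takes in the partners of ANKRD1 and ANKRD2, had 6 of 9 genes tested. Titin (*Ttn*) rose with a log2 fold change of 1.41 (SE 0.21, adjusted p = 0.000718, edgeR), although all its counts lay 1000 bp or more upstream, where falls were frequent. The methyltransferase gene *Smyd2* rose by a log2 fold change of 0.70 and the ubiquitin ligase gene *Trim63* fell by 0.77 on the log2 scale, but leaving out 1 library ended these calls in 5 of 10 fits (ASO replicates 3 and 5, CTRL replicates 1, 3 and 5, with adjusted p up to 0.0594 in edgeR) and in 4 of 10 (ASO replicates 1, 3 and 5, CTRL replicate 4, up to 0.0564). *Ankrd23*, the third ankyrin repeat protein of this family and the member of it that was counted, had a log2 fold change of -0.15 (adjusted p = 0.690, edgeR). Of 13 LIM and PDZ-LIM genes, which include relatives of *Csrp3*, 10 were tested, none rose and 3 fell, against 11.8% and 17.4% of all tested genes: *Lims1* (-3.43), *Pdlim5* (-1.20) and *Fhl1* (-1.86), the former pair with 100% and 96.9% of their counts far upstream, and *Fhl1*, with 22.4%, losing its call without CTRL replicate 4 (adjusted p = 0.0597, edgeR).

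Of 21 thin filament, Z-disc and junction partners of the Xin proteins and NRAP, 16 were tested. Of these 4 rose and 3 fell, against 11.8% and 17.4% of all tested genes. *Actn3*, the alpha-actinin of fast fibers, rose with a log2 fold change of 1.79 and *Tln2*, the junctional talin, with 0.82. *Ctnnb1*, encoding beta-catenin, a binding partner of Xin, fell with -1.80, and *Ilk*, the integrin-linked kinase, with -0.80. Beyond these, *Tln1* and *Vcl* (vinculin) rose and *Enah* fell, named here after their values were seen. Of the counts of *Ctnnb1*, *Ilk* and *Enah*, 38.5, 30.9 and 77.5% lay 1000 bp or more upstream, where falls were frequent. The share was 24.8% for *Tln2* and 0% for *Actn3*, *Tln1* and *Vcl*. Leaving out 1 library ended the call on *Tln1* in 3 of 10 fits (CTRL replicates 1, 2 and 5, with adjusted p up to 0.0605 in edgeR), that on *Vcl* in 5 (ASO replicates 1 and 3, CTRL replicates 1, 4 and 5, up to 0.0953) and that on *Enah* in 1 (CTRL replicate 4, 0.0556). Of 16 genes of Yap and Srf signalling, the transcriptional routes by which load reaches the nucleus, 12 were tested, none rose and 2 fell, against the same 11.8% and 17.4% of all tested genes: *Tead1* (-3.90, all counts far upstream) and *Vgll3* (-1.84, 62.6% far upstream), the latter not past the threshold without ASO replicate 3 or 5 (adjusted p up to 0.0573, edgeR) and with a log2 fold change of -1.08 without CTRL replicate 3. *Srf* had 219 ± 49.3 CPM in ASO and 231 ± 27.4 CPM in CTRL.

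**Figure D5:**
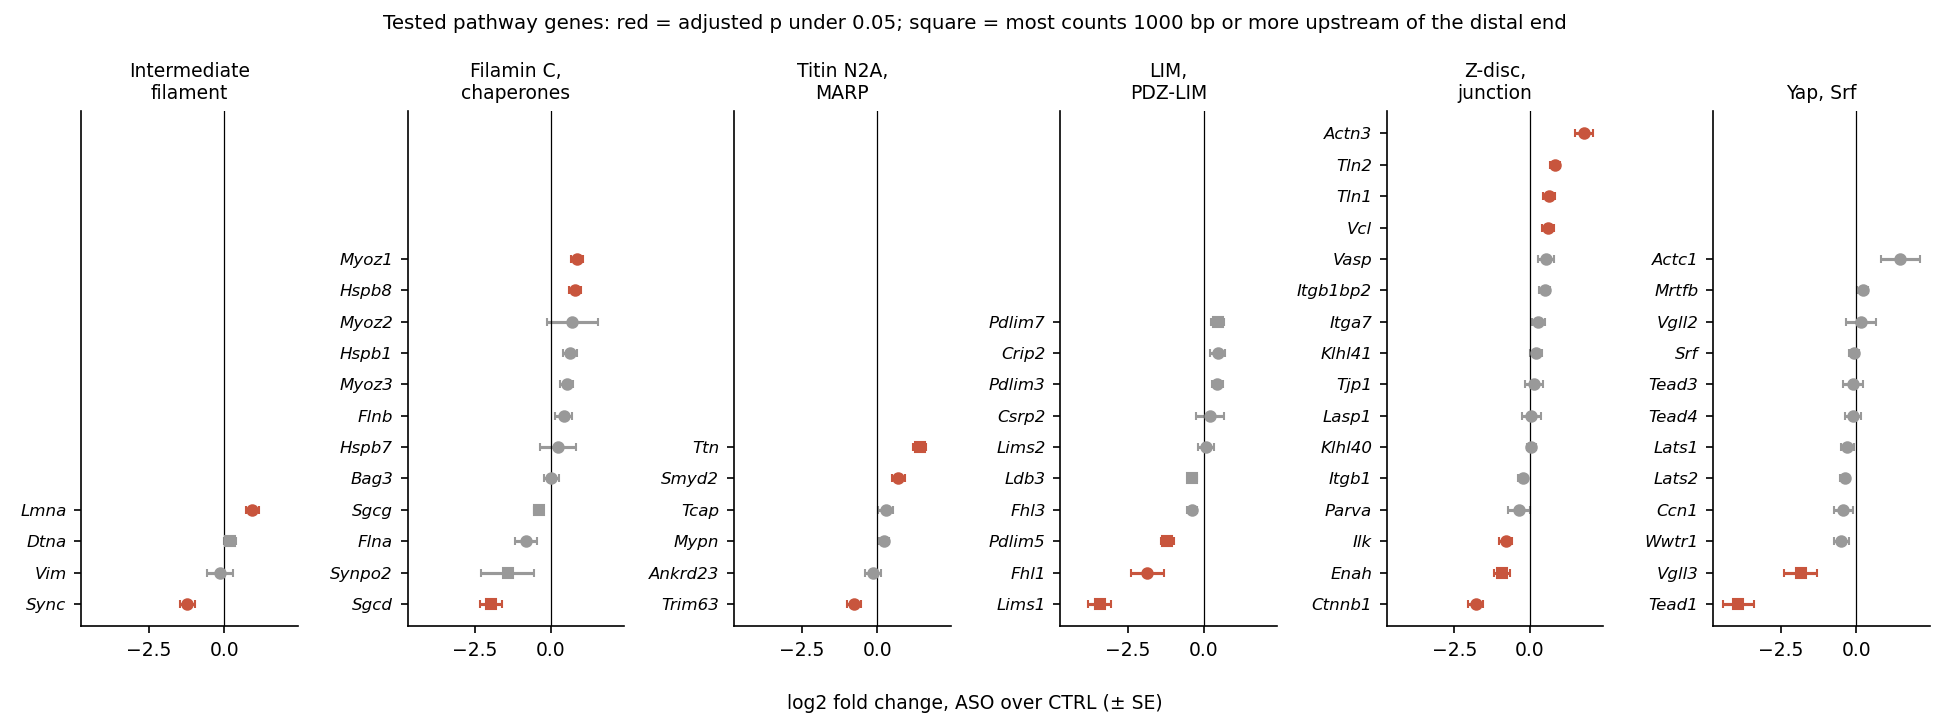
Log2 fold change of ASO over CTRL with the SE of the fit for the tested genes of the 6 pathway lists, red where the adjusted p was under 0.05, square where most counts lay 1000 bp or more upstream of the distal end. Calls in both directions occur in 4 of the lists, and 6 of the 11 falls are squares.

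Markers of the cells that GAS holds were summed per library beside these results. The sum of muscle fiber markers (6 of 8 counted) was higher in every ASO library, 88644 to 136644 against 44071 to 83304 CPM. Of the 5 tested, *Atp2a1* and *Ckm* passed, while *Acta1* (log2 fold change 0.57), *Myl1* (0.78) and *Pvalb* (0.46) did not. The sum of satellite cell markers (5 of 5) was likewise higher, 138 to 162 against 74.1 to 102 CPM. Of the 4 tested, *Cdh15* passed (89.6 ± 7.28 against 38.3 ± 8.28 CPM), while *Itga7* (log2 fold change 0.28), *Vcam1* (0.29) and *Pax7* (0.17) did not. The sums overlapped between the groups for slow fiber, regenerating fiber (*Myog* rose, log2 fold change 2.16), smooth muscle and pericyte, fibroblast and tendon, endothelial, macrophage, adipocyte and blood markers. Of these lists, 1 gene rose in each of the first 3 (*Myl6b*, *Myog* and *Acta2*), *Mrc1* fell among macrophage markers, and none passed in the other 4, whose most abundant tested genes were *Thbs4* and *Fmod*, *Cdh5* and *Kdr*, *Fabp4* and *Adipoq*, and *Hbb-bs* and *Hba-a2*, with log2 fold changes from -0.97 (*Adipoq*) to 0.46 (*Kdr*). CTRL replicate 3 stood apart, with 13744 CPM of adipocyte markers against 846 to 2382 in the other CTRL libraries, 1185 CPM of macrophage markers against 193 to 456, the lowest muscle fiber sum, and the lowest *Nrap* and *Xirp2* of its group. Without it the log2 fold change was 1.10 for *Nrap*, 0.95 for *Xirp1*, -1.35 for *Xirp2* and -3.74 for *Synm*, with the same calls as with it. *Dcn*, *Adgre1*, *Cd163* and *Alas2* were at 0. The part of cell makeup in the members' values was not tested.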

How the data were processed

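Reads of stranded mRNA libraries were trimmed by the authors with fastp and aligned with STAR (GRCm39). Pairs were counted by featureCounts, keeping at most 500 bp at the end of each 3′UTR, and what the authors deposited are unnormalized counts per transcript segment. The methods name the Gencode M25 annotation for this, which is a release for GRCm38. The members' segments, however, lay on exons of GENCODE M39 in GRCm39 coordinates, apart from the intronic part of the *Nrap* segment. The counting options that the methods list include none for strand, and featureCounts ignores strand by default. Columns of 10 libraries were used, and 4 other per-sample columns were not. Of 52423 segments, 52361 were matched to GENCODE M39 by transcript identifier, and the 62 others, with 0.0197% of counts, were left out. Segments were summed per gene. Genes passing the filter by group in edgeR 4.0.16 (R 4.3.3) were tested by quasi-likelihood with TMM factors, and p-values were adjusted after Benjamini-Hochberg over all 7813 genes, with a threshold of 0.05, and CPM are scaled with TMM factors. SE is the absolute log2 fold change over the square root of F. Single levels were compared by two-sided exact permutation of log2(CPM + 1) over 252 labellings, unadjusted over the 5 counted genes. DESeq2 1.42.0 and limma 3.58.1 served as alternatives. Tested on simulated data for this comparison, edgeR recovered 137 of 191 changed genes with 10 false calls. The simulation changed 200 genes by folds alike in both directions and held no group difference in placement. Its error rate therefore does not carry over to the calls given here. Libraries of a group differed by more than sampling noise (chi-square per gene at least 5.82). The replicates are animals as far as the labels say.

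The members and all lists were chosen with earlier results of these data known. Named were all 9 members, up to 4 genes past the threshold with the smallest adjusted p of each list or otherwise the 2 with the highest level, and the 2 genes nearest in pattern to each tested member. Others, such as *Vim*, *Bag3*, *Srf*, *Ankrd23* and markers at 0, were named after their values were seen. A further marker list is not reported here. Counting intervals and the floor of 3 counts cover counting error only. Coordinates are 1-based on GRCm39, and the miRNA sequence is from RefSeq (GRCm38.p6).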

Additional observations from a re-analysis of the deposited data

Results flagged for a closer look

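Among the 10 sets of 5 libraries examined (5 counted members in each group), 1 held a library that stood apart from the rest by Dixon's criterion at the 95% level. The *Xirp1* level of CTRL replicate 1, 705 CPM, was separated from the next highest CTRL library by 0.730 of the range of the group. Chance alone flags about 1 in 20 such sets. Without this library *Xirp1* passed the threshold, as given above.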

How the results depend on the processing

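The directions of *Nrap*, *Xirp1*, *Xirp2* and *Synm* held in every alternative run, and *Nrap*, *Xirp2* and *Synm* stayed past the threshold in all 19 planned ones each. *Xirp1* passed it with DESeq2 (1.06) and without CTRL replicate 1 or ASO replicate 1, with values of 0.72 to 1.40 over left-out libraries (0.66 to 1.20 for the difference of mean log2 CPM). Rising members then numbered 2 with DESeq2, and 1 to 2 over left-out libraries. With each gene read at its most distal segment alone, *Nrap*, *Xirp2* and *Synm* had too few counts to be tested, so 0 members rose and 0 fell, 232 genes rose and 335 fell, and 2 and 1 pathway genes rose and fell. Total counts gave 528 rising genes. In the fit among segments of like distance *Xirp2* was -0.58 and no longer past the threshold. Same-numbered libraries of the groups correlated between -0.428 and 0.164 in their deviations, over 0.1 in 1 of 5 pairs, and 0 of 5 ASO libraries matched their own number best. They share only a number. The fit with the replicate number as a block gave 662 rising and 1172 falling genes, and log2 fold changes of 1.22 for *Nrap*, 0.97 for *Xirp1*, -1.33 for *Xirp2* and -3.77 for *Synm*, with the same calls on these 4. Few or no bases of their own limit *Flnc*, *Csrp3*, *Ankrd1*, *Ankrd2* and the distal end of *Xirp2*, and the place of its segment limits *Des*.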
